A study of Mus musculus with 8 samples.

Results

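The guanylate-binding protein genes were described here across CD4 and CD8 donor T cells. The family was chosen by a measured value, the rise of Gbp6 in STAT3KO CD8 T cells, and its 8 listed members are Gbp2, Gbp3, Gbp4, Gbp5, Gbp6, Gbp7, Gbp8 and Gbp9. They are 8 of the 25078 gene rows of the deposited tables, and all 8 passed the filter on low counts that left 12428 genes for testing. Because the comparison of STAT3KO with WT CD8 T cells chose them, its values are given as a description without a p-value, and its counts past the threshold stand only beside the share of all genes. The comparison in CD4 T cells was between other libraries and was tested, in a fit that took its spread from all 8 libraries. CD4 and CD8 libraries with the same replicate number also deviated together, so it is not a fully independent check.

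Messenger RNA was sequenced from donor T cells sorted out of the spleen on day 6 after allogeneic transplantation. Lethally irradiated BALB/c mice had received T cell-depleted marrow from WT C57BL/6 mice together with C57BL/6 T cells, so every group shared the recipient strain, the irradiation and the WT marrow. Both lineages, CD4 and CD8, were sorted for each donor genotype, WT and STAT3KO, which gave 4 groups of 2 libraries. STAT3KO donors carried floxed Stat3 alleles and a Cre transgene under Cd4 regulatory sequences, which act in developing T cells and therefore delete the gene in both lineages. Each library pooled cells of several recipients, so the p-values below measure the spread between pools. Except where a replicate block is named, that spread includes any shift between replicate 1 and replicate 2. No T cells from mice without transplantation and no untreated T cells were part of these groups.

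Guanylate-binding proteins are large GTPases that cells make in quantity after exposure to interferons, above all interferon gamma. They assemble on vacuoles and on the surface of intracellular bacteria and parasites, where they help to break membranes and to start inflammasome signalling. Interferon gamma signals through JAK kinases to gamma-activated sites in promoters, whereas type I interferons signal to interferon-stimulated response elements through a complex that includes STAT2 and IRF9. In T cells, which are themselves the source of much interferon gamma during graft-versus-host disease, the family is usually read as a trace of interferon exposure.

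In the mouse genome the members lie in 2 clusters. In GRCm38, which is the mm10 build of the deposited tables, the chromosome 3 cluster spans 141 kb from 142496934 to 142638008 on the plus strand and holds Gbp5, Gbp7, Gbp3, Gbp2b and Gbp2 in that order. The chromosome 5 cluster spans 332 kb from 105014153 to 105346476 on the minus strand and holds Gbp8, Gbp9, Gbp4, Gbp10, Gbp6 and Gbp11. Gbp2b, Gbp10 and Gbp11 are relatives outside the 8 members. The longest open reading frames of the chromosome 5 members were 89.3% to 92.2% identical to each other at the nucleotide level, whereas Gbp3 and Gbp7 shared 78.5% and Gbp2 and Gbp5 shared 67.1%.

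RefSeq promoters (GRCm38.p6, plus strand) were at hand for 4 of the 8 members, the 4 of chromosome 3, and are printed because these 4 members lie in 1 cluster and were each called higher in STAT3KO CD4 T cells. Each line gives the 250 bases before a start site. Capitals mark matches of the gamma-activated site, written TTCNNNGAA, or of the core of the interferon-stimulated response element, which is GAAA, any 2 bases and GAAA again, both searched on both strands. In capitals, a run that begins with TTTC is the response element read from the other strand, and in Gbp3 a pair of such matches overlaps.
Gbp5, chr3:142496684-142496933: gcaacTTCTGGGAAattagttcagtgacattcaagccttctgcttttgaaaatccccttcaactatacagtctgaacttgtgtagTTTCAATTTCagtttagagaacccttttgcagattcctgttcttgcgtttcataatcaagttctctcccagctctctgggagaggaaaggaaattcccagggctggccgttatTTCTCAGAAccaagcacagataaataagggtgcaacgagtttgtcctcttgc
Gbp7, chr3:142530086-142530335: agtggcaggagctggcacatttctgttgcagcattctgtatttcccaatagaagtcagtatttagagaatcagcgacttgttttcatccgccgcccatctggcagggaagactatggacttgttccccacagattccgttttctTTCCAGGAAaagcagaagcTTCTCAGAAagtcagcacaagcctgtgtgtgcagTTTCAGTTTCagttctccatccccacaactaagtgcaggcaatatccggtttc
Gbp3, chr3:142559794-142560043: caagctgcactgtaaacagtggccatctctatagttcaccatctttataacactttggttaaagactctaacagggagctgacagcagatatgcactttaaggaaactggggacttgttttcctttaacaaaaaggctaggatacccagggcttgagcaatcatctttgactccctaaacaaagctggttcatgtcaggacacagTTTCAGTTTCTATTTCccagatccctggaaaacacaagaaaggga
Gbp2, chr3:142620413-142620662: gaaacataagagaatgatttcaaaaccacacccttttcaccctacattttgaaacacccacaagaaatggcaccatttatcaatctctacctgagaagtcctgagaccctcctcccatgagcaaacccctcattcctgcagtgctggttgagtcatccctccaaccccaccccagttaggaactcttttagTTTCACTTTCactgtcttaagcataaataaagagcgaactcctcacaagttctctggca

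Gbp5 held 2 gamma-activated sites, at -245 to -237 and at -52 to -44 from the start, and 1 response element core at -165 to -156. Gbp7 held 2 gamma-activated sites, at -106 to -98 and at -87 to -79, and 1 response element core at -53 to -44. Gbp3 held 2 response element cores, at -45 to -36 and at -39 to -30, and Gbp2 held 1 at -59 to -50, without a gamma-activated site in either window. Gbp3 has another RefSeq start at 142560356, whose window held neither motif. Among 32851 RefSeq promoters of this length, 7.02% held a gamma-activated site, 2.98% held a response element core and 0.332% held both. These matches describe letters in a window and not bound sites.

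The libraries held between 20171396 and 23282757 counts. Stat3 itself, the targeted gene, averaged 432 CPM (counts scaled to the library total, with TMM factors) in WT CD4 and 140 CPM in STAT3KO CD4 libraries, and 433 against 131 CPM in CD8 libraries, with no overlap between genotypes in either lineage. Summed CD4 lineage markers (Cd4, Cd40lg and Zbtb7b) ran from 1664 to 1876 CPM, which for all marker sums is scaled to the library total without TMM factors, in CD4 libraries and from 58.1 to 77.4 CPM in CD8 libraries. Summed CD8 lineage markers (Cd8a, Cd8b1 and Crtam) ran from 20.5 to 57.0 CPM in CD4 libraries and from 1901 to 2237 CPM in CD8 libraries. The labelled lineages therefore matched their markers.

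The levels of the members per transcript length set the scale of what follows. In WT CD4 T cells Gbp2 was the highest member at 54.8 RPKM (reads scaled to transcript length and library size), followed by Gbp4 at 45.4, Gbp9 at 43.3, Gbp7 at 32.9, Gbp3 at 24.1, Gbp8 at 18.3, Gbp5 at 15.5 and Gbp6 at 6.12 RPKM. Of these neighbours in rank, the libraries of Gbp4 and Gbp9 overlapped. In WT CD8 T cells Gbp7 led at 38.0 RPKM, before Gbp2 at 30.9, Gbp4 at 30.6 and Gbp3 at 25.2 RPKM, and the libraries of Gbp2 overlapped those of Gbp4, which in turn overlapped those of Gbp3. Gbp9 at 17.8, Gbp8 at 11.0 and Gbp5 at 10.6 RPKM came next in WT CD8 T cells, Gbp8 and Gbp5 overlapping, and Gbp6 was again last at 2.32 RPKM. Gbp6, whose protein gathers on the vacuoles of intracellular parasites, thus had the lowest RPKM of the members in all 8 libraries. Of the 51-base stretches (the read length) in its transcripts 49.6% also occur in other genes, against 1.38% to 17.5% for the other members. Reads from such stretches cannot be placed in 1 gene, so the RPKM of Gbp6 may be too low. Its rank was not tested against this.

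STAT3KO CD4 T cells kept Gbp2 first at 99.0 RPKM, with Gbp7 second at 86.2 RPKM and overlapping libraries. Gbp4 at 71.4 and Gbp3 at 59.5 RPKM overlapped as well, Gbp9 came next at 45.1 RPKM, and the libraries of Gbp8 at 31.1 RPKM overlapped those of Gbp5 at 28.6 RPKM. Gbp5 in turn overlapped Gbp6, which reached 24.3 RPKM. In STAT3KO CD8 T cells the order was that of WT CD8 T cells, from Gbp7 at 64.0 RPKM through Gbp2 at 47.2, Gbp4 at 45.7, Gbp3 at 40.4, Gbp9 at 23.5, Gbp8 at 16.6 and Gbp5 at 14.9 to Gbp6 at 9.46 RPKM. There the neighbours that overlapped were again Gbp2 with Gbp4 and Gbp4 with Gbp3.

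**Figure D1:**
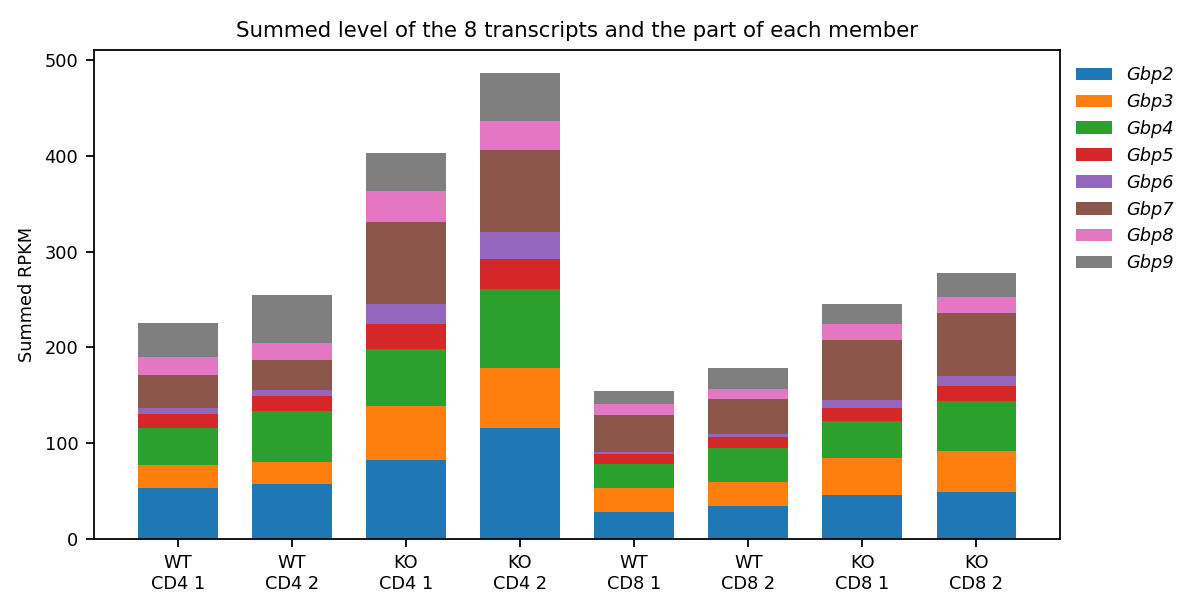
Stacked bars give the summed RPKM of the 8 members in each of the 8 libraries, and each colour is 1 member. The sum was 240 RPKM on average in WT CD4, 445 in STAT3KO CD4, 166 in WT CD8 and 262 in STAT3KO CD8 libraries.

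Summed over the 8 members, the family reached 226 and 255 RPKM in WT CD4 T cells and 404 and 486 RPKM in STAT3KO CD4 T cells. The CD8 sums were 155 and 178 RPKM in WT and 245 and 278 RPKM in STAT3KO libraries. Within each lineage the STAT3KO sums lay above the WT sums, and within each genotype the CD4 sums lay above the CD8 sums. The make-up of the sum also differed between groups. Gbp6 formed 2.55% of it in WT CD4 and 5.43% in STAT3KO CD4 libraries, and Gbp7 formed 13.8% and 19.5%. The part of Gbp6 may be too low, because many stretches of its transcripts also occur in other genes. Gbp9 went the other way in CD4 libraries, from 17.9% to 10.1%. In CD8 libraries its mean part was 10.6% in WT and 8.94% in STAT3KO. The genotypes overlapped there, at 9.17% and 12.1% in WT against 8.61% and 9.28% in STAT3KO.

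In CD4 T cells, 6 of the 8 members were higher in STAT3KO than in WT cells, by 1.73- to 4.05-fold, and none was lower (edgeR quasi-likelihood test, Benjamini-Hochberg adjusted p under 0.05 over all 12428 genes). Across all genes 6.54% were called higher and 5.08% were called lower in this comparison. In 7 of the 8 members both STAT3KO libraries lay above both WT libraries, beside 28.5% of all genes. The median log2 fold change was 0.90 over the 8 members and 0.02 over all genes tested. In bulk libraries, a larger share of cells that express a transcript and more of it per cell cannot be told apart.

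Gbp6 measured 24.8 and 28.0 CPM in WT CD4 T cells and 89.9 and 124 CPM in their STAT3KO counterparts. The STAT3KO libraries were both far above the WT libraries, and the log2 fold change of 2.02 ± 0.26 (SE, n = 2 per group) was the largest of the 8 (edgeR adjusted p = 0.00364). Gbp10, the neighbour that shares 98.4% of the reading frame of Gbp6, was 2.80 ± 0.72 CPM in WT and 12.8 ± 2.87 CPM in STAT3KO CD4 libraries (mean ± SD, n = 2), a log2 fold change of 2.19 (edgeR adjusted p = 0.0146). The call of Gbp10 was lost without WT CD4 replicate 1 or either STAT3KO CD4 replicate. Of the 51-base stretches in Gbp6 transcripts 45.7% also occur in Gbp10, and single-end reads of this length from them cannot be placed in 1 gene. Where the counting left such reads out, the counts of both genes are too low. The ratio of Gbp10 to Gbp6 RPKM lay between 0.113 and 0.146 in the CD4 libraries and between 0.154 and 0.237 in the CD8 libraries. Of the stretches in Gbp10 transcripts 75.8% also occur in other genes, and 72.9% occur in Gbp6. Gbp10 is thus the more affected gene, and the ratio may be too low.

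Gbp7, linked to the assembly of the phagocyte oxidase and to autophagy, measured 196 and 174 CPM in WT CD4 and 491 and 496 CPM in STAT3KO CD4 libraries. The difference between genotypes far exceeded that between libraries of a group, at a log2 fold change of 1.42 ± 0.11 (edgeR adjusted p = 0.000853). Gbp3, its neighbour on chromosome 3, measured 76.7 and 74.0 CPM in WT CD4 and 177 and 202 CPM in STAT3KO CD4 libraries. It rose by 1.33 ± 0.11 on the log2 scale (edgeR adjusted p = 0.00101), close to Gbp7. These nearest relatives on chromosome 3 share only 3.66% of the 51-base stretches of Gbp3 and 2.19% of those of Gbp7.

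Gbp2, which carries a lipid anchor and coats parasite vacuoles, measured 131 and 138 CPM in WT CD4 and 205 and 291 CPM in STAT3KO CD4 libraries. The STAT3KO libraries were further apart than the WT libraries but above both of them, and the log2 fold change was 0.88 ± 0.18 (edgeR adjusted p = 0.0211). This call was lost without WT CD4 replicate 1, WT CD4 replicate 2 or STAT3KO CD4 replicate 2, where the edgeR adjusted p was 0.0813, 0.0818 and 0.109. Gbp5, the other lipid-anchored member and a promoter of NLRP3 inflammasome assembly, measured 45.3 and 48.4 CPM in WT CD4 and 79.8 and 96.1 CPM in STAT3KO CD4 libraries. Its log2 fold change was 0.91 ± 0.14 (edgeR adjusted p = 0.00738), and without STAT3KO CD4 replicate 2 the edgeR adjusted p was 0.0589. Gbp8 measured 47.7 and 42.2 CPM in WT CD4 and 79.6 and 76.1 CPM in STAT3KO CD4 libraries, a log2 fold change of 0.79 ± 0.10 (edgeR adjusted p = 0.00392). Both libraries of each genotype were close together for Gbp8.

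Gbp4, which restrains IRF7 activation, measured 184 and 248 CPM in WT CD4 and 289 and 404 CPM in STAT3KO CD4 libraries. The groups did not overlap, but the libraries of each genotype stood far apart, and the log2 fold change of 0.68 ± 0.26 was not called (edgeR adjusted p = 0.134). The STAT3KO to WT ratio was alike in both replicates, 0.65 and 0.71 on the log2 scale. With the replicate number as a block the log2 fold change was 0.68 ± 0.07 (edgeR adjusted p = 0.000101), and DESeq2 without the block gave an adjusted p of 0.0393.

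Gbp9, another protein of the parasite vacuole, measured 202 and 280 CPM in WT CD4 and 227 and 284 CPM in STAT3KO CD4 libraries. The groups overlapped, and the log2 fold change of 0.09 ± 0.24 was not called (edgeR adjusted p = 0.865). Its 95% interval ran from -0.48 to 0.66 on the log2 scale, and the estimates of the 6 called members all lay above the upper end. Gbp9 lies between Gbp8 and Gbp4 on chromosome 5, and 7.73% of the 51-base stretches in its transcripts occur in other genes.

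**Figure D2:**
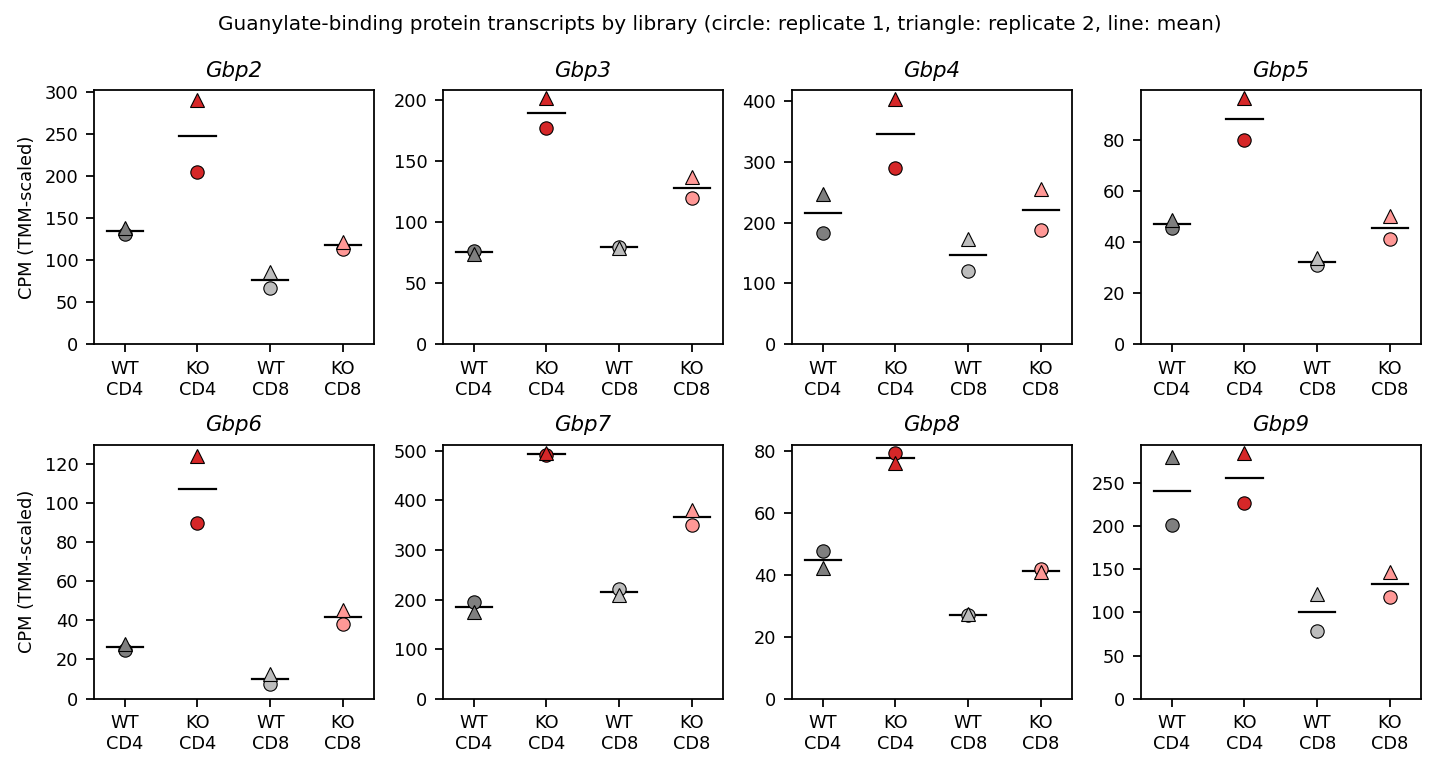
Each panel shows 1 member, with TMM-scaled CPM on an axis from 0 for the CD4 and then the CD8 groups, WT before STAT3KO (KO). Circles are replicate 1, triangles are replicate 2 and lines are group means, and Gbp9 is the only panel in which the CD4 genotypes overlap.

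Replicate 2 was higher than replicate 1 in all 4 groups for Gbp2, Gbp4, Gbp5, Gbp6 and Gbp9, but not for Gbp3, Gbp7 and Gbp8. Summed macrophage and monocyte markers (10 genes, none at 0 in all libraries) were also higher in replicate 2 of every group, from 24.0 to 77.7 CPM in WT CD4, from 24.1 to 97.0 CPM in STAT3KO CD4, from 43.6 to 148 CPM in WT CD8 and from 57.4 to 123 CPM in STAT3KO CD8 libraries. The sums of the genotypes overlapped in both lineages. Summed natural killer cell markers (4 genes, Klra8 at 0 throughout) were 19.8 and 20.0 CPM in WT CD4 against 28.4 and 29.6 CPM in STAT3KO CD4 libraries, and B cell markers (6 genes) were 1.19 and 1.66 against 2.31 and 2.87 CPM. Neutrophil markers (6 genes) ran from 6.40 to 7.07 CPM in WT CD4 and from 2.41 to 7.42 CPM in STAT3KO CD4 libraries, and dendritic cell markers (6 genes, Clec9a and Siglech at 0) from 15.2 to 16.6 and from 14.5 to 16.7 CPM. Erythroid markers (6 genes, the 4 globin genes at 0) stayed at or below 1.27 CPM in every CD4 library. The part of these cells in the levels of the members was not tested.

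**Figure D3:**
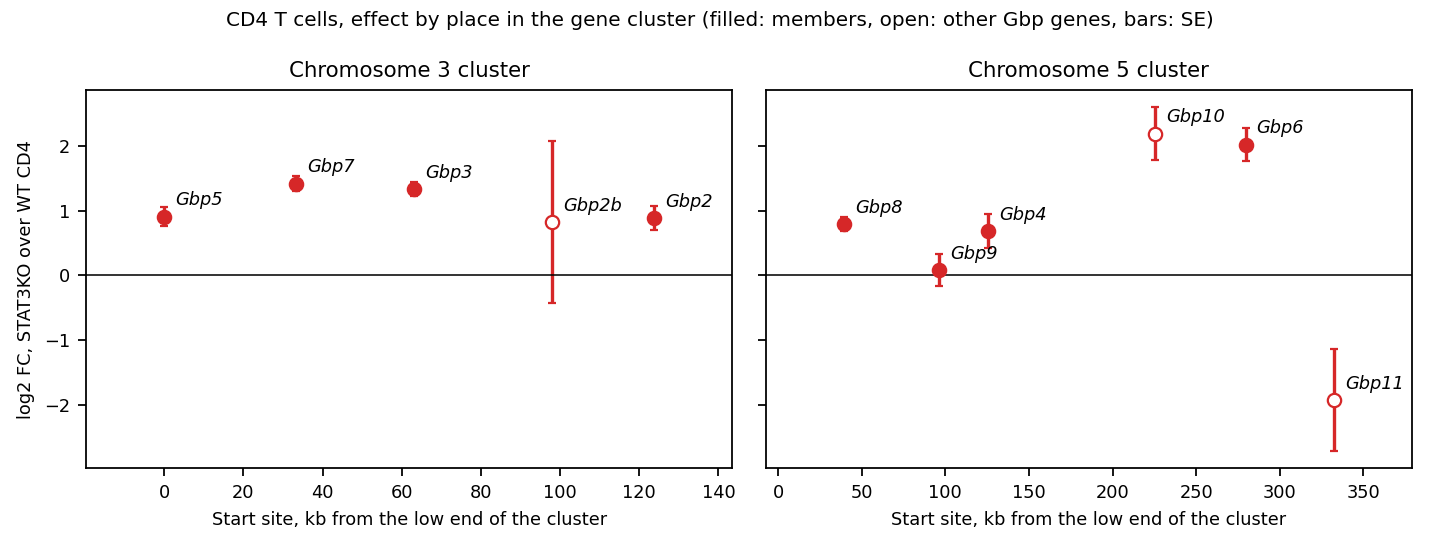
The log2 fold change of STAT3KO over WT CD4 T cells (points, bars are SE) is drawn against the distance of the start site in kb from the low end of each cluster, with filled points for members and open points for Gbp2b, Gbp10 and Gbp11. All 4 members on chromosome 3 sit between 0.88 and 1.42, whereas chromosome 5 holds both the smallest value, 0.09 for Gbp9, and the largest of a member, 2.02 for Gbp6.

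The members on chromosome 3 differed from each other by less than those on chromosome 5. The 4 on chromosome 3 lay between 0.88 and 1.42 on the log2 scale and the 4 on chromosome 5 between 0.09 and 2.02. The upper end on chromosome 5 was Gbp6, whose rise in CD8 T cells chose the family. The next member there was Gbp8 at 0.79. Gbp2b on chromosome 3, at 1.87 ± 1.30 CPM in WT and 3.32 ± 3.13 CPM in STAT3KO CD4 libraries, was not called (edgeR adjusted p = 0.730). Gbp11 on chromosome 5 was 9.64 ± 7.15 CPM in WT and 2.54 ± 0.41 CPM in STAT3KO CD4 libraries, a log2 fold change of -1.92 that was not called without the replicate block (edgeR adjusted p = 0.165) but was with it (edgeR adjusted p = 0.00841).

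In CD8 T cells, the comparison that chose the family, Gbp6 measured 7.43 and 12.8 CPM in WT and 38.0 and 45.0 CPM in STAT3KO libraries. The means of 10.1 and 41.5 CPM differed by 2.03 ± 0.27 on the log2 scale. The other 7 members had log2 fold changes from 0.40 for Gbp9 to 0.76 for Gbp7, and the median of the 8 was 0.61 beside -0.01 over all genes. The threshold was passed upward by 4 of 8 members, beside 1.34% of all genes upward and 0.732% downward. For 7 of 8 members, all but Gbp9, both STAT3KO libraries exceeded both WT libraries, beside 24.9% of all genes. Nothing is read from these counts, since this comparison selected the members.

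The other members of the CD8 libraries were as follows. Gbp7 measured 221 and 210 CPM in WT and 351 and 380 CPM in STAT3KO CD8 libraries. Gbp3 measured 79.7 and 78.8 CPM in WT and 120 and 137 CPM in STAT3KO CD8 libraries. The WT libraries of both genes were close together, and their STAT3KO libraries lay above them. Gbp2 measured 67.3 and 85.8 CPM in WT and 113 and 122 CPM in STAT3KO CD8 libraries. Gbp5 measured 30.8 and 33.9 CPM in WT and 41.1 and 50.1 CPM in STAT3KO CD8 libraries. For these lipid-anchored members the genotypes did not overlap either. Gbp8 measured 27.1 and 27.2 CPM in WT and 42.1 and 40.8 CPM in STAT3KO CD8 libraries. Gbp4 measured 120 and 173 CPM in WT and 188 and 255 CPM in STAT3KO CD8 libraries, a narrow gap between the groups. Gbp9 measured 78.8 and 122 CPM in WT and 118 and 147 CPM in STAT3KO CD8 libraries, where the groups overlapped. Dendritic cell markers, without any count of Clec9a and Siglech, summed to 240 and 273 CPM in WT CD8 libraries. In STAT3KO CD8 libraries they summed to 161 and 208 CPM. Neutrophil markers summed to 6.66 and 15.8 CPM in WT CD8 and to 4.83 and 5.52 CPM in STAT3KO CD8 libraries. B cell markers stayed between 12.6 and 13.3 CPM in the CD8 libraries and natural killer cell markers between 61.1 and 88.5 CPM, with overlapping genotypes. Their part in these levels was not tested.

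**Figure D4:**
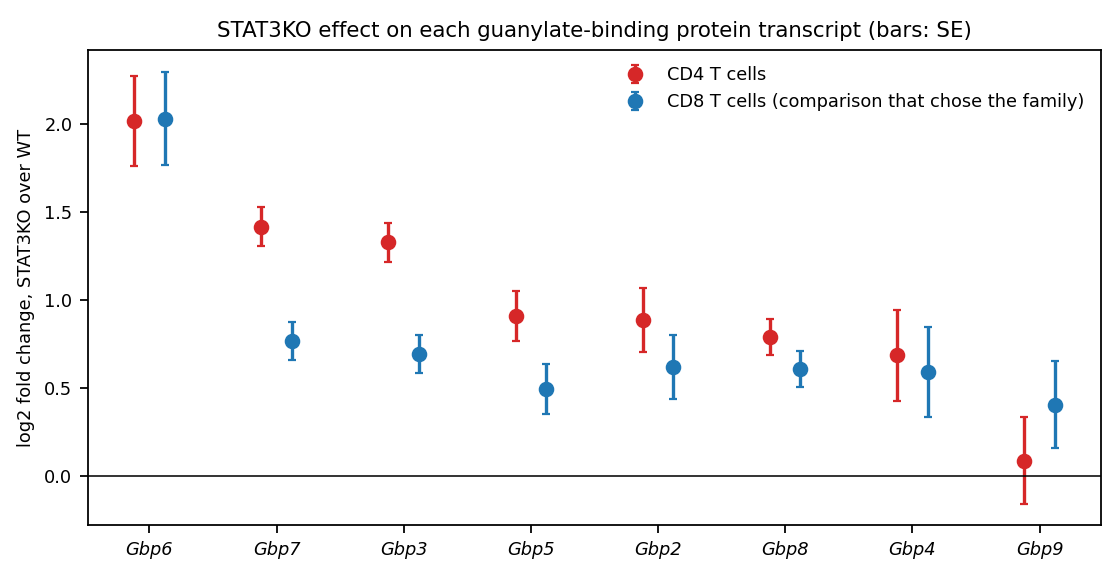
Points give the log2 fold change of STAT3KO over WT for each member (bars are SE, n = 2 libraries per group), in red for CD4 and in blue for CD8 T cells. Gbp6 is near 2.02 in CD4 and 2.03 in CD8, Gbp7 and Gbp3 are higher in CD4 than in CD8, and Gbp9 is the lowest in both.

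Set side by side, the log2 fold changes in CD4 and CD8 T cells were 2.02 and 2.03 for Gbp6, 1.42 and 0.76 for Gbp7, and 1.33 and 0.69 for Gbp3. They were 0.91 and 0.50 for Gbp5, 0.88 and 0.62 for Gbp2, 0.79 and 0.61 for Gbp8, 0.68 and 0.59 for Gbp4, and 0.09 and 0.40 for Gbp9. The CD8 minus CD4 difference of these values was -0.65 ± 0.15 for Gbp7 and -0.63 ± 0.15 for Gbp3 on the log2 scale. No p-value is given for single members, because the CD8 side chose them. Over all 12428 genes the edgeR test of this difference called 0 genes, members included, with a lowest adjusted p of 0.0916 and 982 genes at an unadjusted p under 0.05.

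The levels of several members differed between the lineages as well. In WT cells, 4 of the 7 members other than Gbp6 were lower in CD8 than in CD4 T cells and none was higher, beside 11.6% of all genes called lower and 12.2% called higher. Gbp9 was the furthest apart, at 241 ± 55.3 CPM in WT CD4 and 100.2 ± 30.2 CPM in WT CD8 libraries (mean ± SD, n = 2), a log2 fold change of -1.26 (edgeR adjusted p = 0.00921). Gbp2 was lower by 0.81 (edgeR adjusted p = 0.0162), Gbp8 by 0.73 (edgeR adjusted p = 0.00230) and Gbp5 by 0.53 (edgeR adjusted p = 0.0311) on the log2 scale. Gbp3, with a log2 fold change of 0.07 and a 95% interval from -0.18 to 0.33, and Gbp7, with 0.22 and an interval from -0.03 to 0.47, were not called. Gbp4 had a log2 fold change of -0.55 and was not called without the replicate block (edgeR adjusted p = 0.166) but was with it (edgeR adjusted p = 0.000169). Without WT CD4 replicate 2 or without WT CD8 replicate 1 the count fell from 4 to 2. The value for Gbp6 was -1.38, and no p-value is given because its WT CD8 libraries took part in its selection. The profiles of the other 7 members follow that of Gbp6 over the 8 libraries (Pearson r from 0.73 to 0.95). Their p-values and count here are therefore not free of that selection.

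In STAT3KO cells, 6 of the 7 members other than Gbp6 were lower in CD8 than in CD4 T cells and none was higher, beside 6.67% of all genes called lower and 5.84% called higher. The log2 fold changes ran from -0.43 for Gbp7 (edgeR adjusted p = 0.0395) and -0.56 for Gbp3 (edgeR adjusted p = 0.0156) to -1.07 for Gbp2 (edgeR adjusted p = 0.00993). Gbp8, Gbp9 and Gbp5 were between them at -0.91, -0.95 and -0.95 (edgeR adjusted p = 0.00225, 0.0457 and 0.00594). Gbp4, at -0.65, was called only with the replicate block (edgeR adjusted p = 0.150 without it and 0.000144 with it). The count was 3 without STAT3KO CD4 replicate 2, 2 without STAT3KO CD8 replicate 1 and 3 without STAT3KO CD8 replicate 2. Gbp6 had a log2 fold change of -1.37, again without a p-value. The STAT3KO CD8 libraries also took part in the selection, so the p-values and count of the other 7 carry the same limit. In these lineage comparisons the dendritic, natural killer and B cell marker sums were all higher in CD8 than in CD4 libraries, and their part in the result was not tested. Clec9a and Siglech of the dendritic list and Klra8 of the natural killer list had no counts in any library.

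Across the 8 libraries some members had closely similar profiles and others did not. Gbp3 and Gbp7 had the most similar profiles (Pearson r = 0.99 on log2 CPM), followed by Gbp2 and Gbp5 (r = 0.98). Gbp9 was least like Gbp7 (r = 0.23) and Gbp3 (r = 0.37), and closest to Gbp2 (r = 0.86). These coefficients describe 8 libraries in 4 groups that share genotype, lineage and replicate structure, and carry no test. Among 8750 other genes, those whose profile over the same libraries was most like the mean of the members were Irgm1 (r = 0.99), Serpina3g (r = 0.98), Smurf2 (r = 0.98), Irgm2 (r = 0.98) and Bst2 (r = 0.98). Irgm1, an immunity-related GTPase, averaged 98.4 CPM in WT CD4, 205 in STAT3KO CD4, 74.2 in WT CD8 and 125 in STAT3KO CD8 libraries, which is the order of the family's sum.

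Other interferon-induced GTPases were listed together, immunity-related GTPases, which work on the same vacuoles, with genes of the very large inducible GTPase family. Of 21 listed genes 16 were in the tables and 13 were tested, of which 10 were called higher in STAT3KO CD4 T cells and none lower. Beside this, 6.54% of all genes were called higher and 5.08% lower. The median log2 fold change of the 13 was 1.47. The largest changes were those of F830016B08Rik (3.12, at only 0.24 CPM in WT, edgeR adjusted p = 0.0365), Iigp1 (2.11, adjusted p = 0.0452), Tgtp2 (1.77, adjusted p = 0.0106) and Gm12250 (1.50, adjusted p = 0.00206). The smallest called changes were those of Igtp (0.63, edgeR adjusted p = 0.00745) and Irgm2 (0.95, adjusted p = 0.00364). Iigp1, which codes for a GTPase of the parasite vacuole, measured 28.0 and 34.8 CPM in WT CD4 and 113 and 158 CPM in STAT3KO CD4 libraries. Tgtp1 and Tgtp2 are near-identical copies whose counts are uncertain. The count of 10 fell to 5 when either STAT3KO CD4 library, replicate 1 or replicate 2, was left out. In CD8 T cells the median of the 13 was 0.86, given as a description.

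Upstream of the members, interferon transcripts, receptors and signalling genes showed calls in both directions. Of 24 listed genes 19 were tested in CD4 T cells, of which 3 were called higher and 3 lower in STAT3KO cells. The share called in each direction was 15.8%, beside 6.54% of all genes called higher and 5.08% called lower. The median log2 fold change was 0.16. Irf9, a part of the type I complex, measured 132 and 110.0 CPM in WT and 184 and 183 CPM in STAT3KO CD4 T cells and rose by 0.60 on the log2 scale (edgeR adjusted p = 0.0234), and Nlrc5, the transactivator of class I genes, by 0.39 (adjusted p = 0.0369). Socs3, a feedback inhibitor that STAT3 is known to induce, measured 369 and 367 CPM in WT and 98.6 and 136 CPM in STAT3KO CD4 T cells (-1.65 on the log2 scale, edgeR adjusted p = 0.00474). Socs1, the feedback inhibitor of interferon receptor kinases, fell by 0.87 (adjusted p = 0.0347), and Ifnar2, a chain of the type I receptor, fell by 0.89 (adjusted p = 0.0133).

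Of the other signalling genes named here, Ifngr2, Stat2, Jak2 and Irf1 were called in CD4 T cells only with the replicate block. Ifng, the ligand, measured 374 and 235 CPM in WT and 411 and 270 CPM in STAT3KO CD4 libraries, with a log2 fold change of 0.16 (edgeR adjusted p = 0.780, and 0.178 with the block). The receptor chains gave 0.14 for Ifngr1 (adjusted p = 0.718) and -1.77 for Ifngr2, which was at 5.30 CPM or less on average (adjusted p = 0.115, and 0.00579 with the block). Stat2 gave 0.25 (adjusted p = 0.272, and 0.0472 with the block) and Ifnar1, the other type I receptor chain, gave 0.09 (adjusted p = 0.645). Jak1 gave -0.003 (adjusted p = 0.988) and Jak2 gave -0.33 (adjusted p = 0.0571, and 0.00675 with the block). Irf1, an interferon-induced transcription factor, measured 407 and 353 CPM in WT and 449 and 692 CPM in STAT3KO CD4 T cells (0.59 on the log2 scale, edgeR adjusted p = 0.196, and 0.0388 with the block). Ifngr1, Ifnar1 and Jak1 were not called in either fit. With the replicate number as a block 13 of the 19 signalling genes were called in either direction rather than 6. The block also raised the shares of all genes, to 16.5% called higher and 13.7% called lower. Calls among the signalling genes fell when any CD4 library or either STAT3KO CD8 library was left out.

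Downstream, 12 of 30 type I interferon-stimulated genes (40%) were called higher in STAT3KO CD4 T cells and none lower. Beside this, 6.54% of all genes were called higher and 5.08% lower. The list's median log2 fold change was 0.53. The largest called changes were those of Samd9l (1.05, edgeR adjusted p = 0.00404), Oas3 (0.97, adjusted p = 0.0434), Ifit3 (0.96, adjusted p = 0.0404) and Xaf1 (0.96, adjusted p = 0.00254). The smallest were those of the RNA sensor Ddx58 (0.51, edgeR adjusted p = 0.0365) and the nucleic acid sensor Zbp1 (0.52, adjusted p = 0.0317). Of the interferon gamma targets outside the GTPases, 17 of 21 were tested, and 3 (17.6%) were called higher and 1 lower, beside the same shares of all genes. Their median was 0.40. Psmb9 (0.67, edgeR adjusted p = 0.00533), Psmb10 (0.47, adjusted p = 0.0426) and Tap1 (0.45, adjusted p = 0.0247), which serve antigen processing for class I molecules, rose, and Socs1, which is on both lists, fell. With the replicate block 23 type I genes and 8 interferon gamma targets were called, beside 16.5% of all genes called higher and 13.7% called lower. The 12 type I genes became 6 with only the 4 CD4 libraries in the fit, 5 without WT CD4 replicate 1, 3 without WT CD4 replicate 2, and with STAT3KO CD4 libraries left out 4 (replicate 1) and 2 (replicate 2). The 4 interferon gamma targets became 1 without any 1 of the first 3 of these libraries and 0 without STAT3KO CD4 replicate 2.

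**Figure D5:**
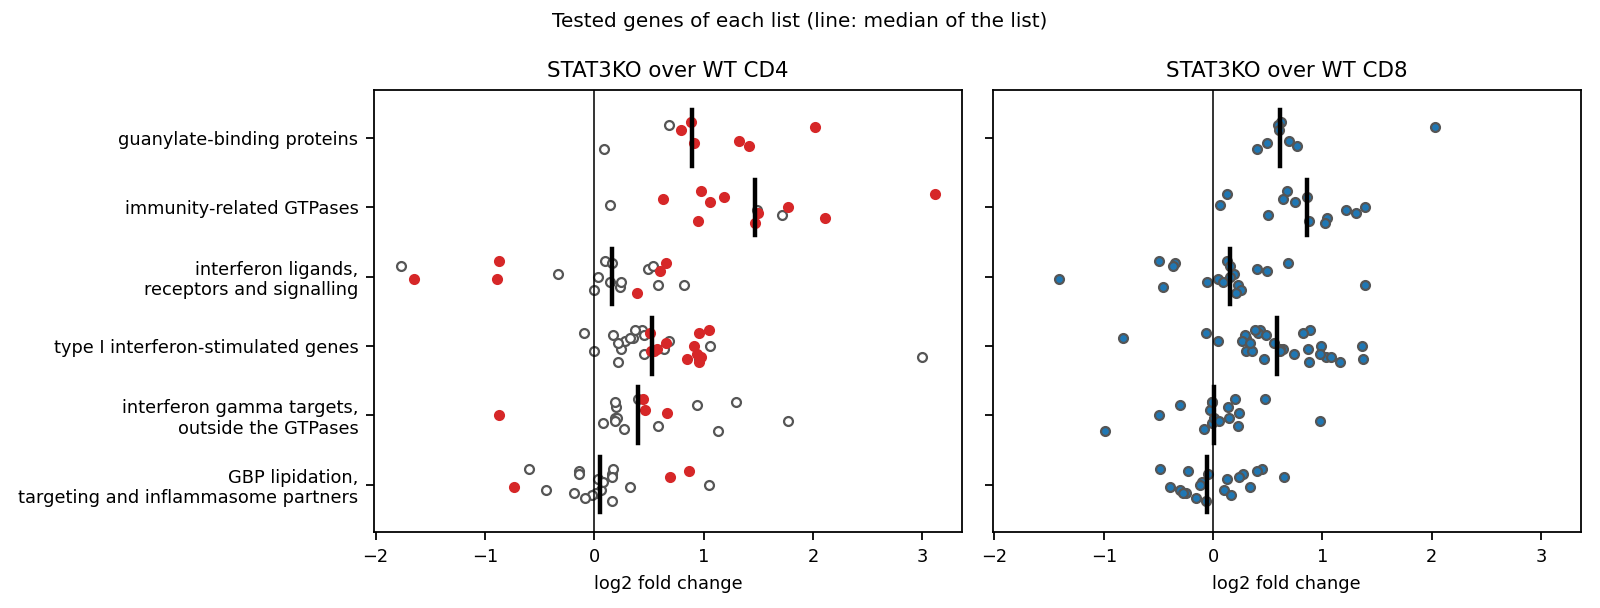
Each point is the log2 fold change of 1 tested gene, STAT3KO over WT, in CD4 (left) and CD8 (right) T cells, by gene list, and vertical lines are list medians. Red points on the left were called in CD4 T cells, open points were not, and blue points on the right carry no call because that comparison chose the members. In CD4 T cells the medians run from 0.05 for the partners to 1.47 for the list headed immunity-related GTPases, with 0.90 for the guanylate-binding proteins.

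Enzymes that attach lipids to guanylate-binding proteins, the conjugation machinery that guides them to vacuoles, and inflammasome components were listed as their partners. All 20 were tested in CD4 T cells, of which 2 were called higher and 1 lower, or 10% and 5% beside 6.54% and 5.08% of all genes, with a median log2 fold change of 0.05. Pycard, the inflammasome adaptor, measured 92.4 and 96.9 CPM in WT and 162 and 183 CPM in STAT3KO CD4 T cells (0.86 on the log2 scale, edgeR adjusted p = 0.00469). Casp1, the inflammasome protease, measured 133 and 137 CPM in WT and 202 and 235 CPM in STAT3KO CD4 libraries (0.70, adjusted p = 0.00663). Pim1, a kinase that is also a STAT3 target, fell by 0.73 (adjusted p = 0.0255). With the replicate block 6 of the 20 partners were called in either direction, beside 16.5% of all genes called higher and 13.7% called lower. Calls among the partners fell when any CD4 library was left out. In CD8 T cells the median log2 fold changes were 0.15 for the signalling genes, 0.58 for the type I genes, 0.005 for the interferon gamma targets and -0.05 for the partners, given as a description.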

How the data were processed

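The deposited counts were made by the authors with STAR and HTSeq-count against RefSeq genes on mm10, from 51-base single-end reads, 1 column per library. The deposited RPKM values are the same counts scaled by the authors for exon length and library size. The strand setting of the counting is not given in the sources used here. The growth and treatment fields of the labels describe a cell line that is not part of the study, and were set aside. The libraries held 20171396 to 23282757 counts, so that 3 counts correspond to 0.129 to 0.149 CPM, which covers counting error only.

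Genes passing edgeR's expression filter with a count minimum of 10 were tested with edgeR's quasi-likelihood test (edgeR 4.0.16, R 4.3.3) after TMM scaling. One fit held all 8 libraries and 4 groups, and p-values were adjusted by Benjamini-Hochberg over 12428 genes. A gene was called at an adjusted p under 0.05. Standard errors are the log2 fold change divided by the square root of F. Levels between genes were compared in RPKM only. Alternatives were DESeq2 1.42.0, RLE or no TMM scaling, no filter, a replicate block, the 4 libraries of a comparison alone, limma 3.58.1 on log2(RPKM + 1) and log2(RPKM + 0.1), and the fit without each library.

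Libraries with the same replicate number deviated together from their group means (r of 0.42 to 0.67 over pairs of groups). The numbers, which the labels give, were therefore used to pair the libraries, but only in the alternative with a replicate block. The main fit ignored this pairing, so its standard errors and p-values include the shift between replicates. The members and gene lists were chosen with earlier results of these data known. Named genes were all members, a set of interferon signalling genes, 1 of which is not reported here, the 4 highest and 2 lowest called genes of each list in CD4 T cells, and the 5 genes most like the members. Shared stretches and reading frames came from GENCODE transcripts, and promoters from RefSeq. Protein sequences were not used here.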

Additional observations from a re-analysis of the deposited data

How the results depend on the processing

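No member changed sign in any comparison under any alternative except Gbp9 in CD4 T cells, which was never called and gave -0.16 without WT CD4 replicate 1 and -0.09 without STAT3KO CD4 replicate 2. The replicate block raised the genes called in CD4 T cells from 813 to 2046 higher and from 631 to 1701 lower, and in CD8 T cells from 166 to 1278 higher and from 91 to 980 lower, so its counts are not set against the background of the fit without it. With the block 8 rather than 4 members passed the threshold in CD8 T cells. All genes gave 10.3% higher and 7.89% lower with the block, and 1.34% and 0.732% without it. In CD4 T cells the block called 13 signalling genes, 23 type I genes, 8 interferon gamma targets, 6 partners and 2 relatives. It called 16.5% of all genes higher and 13.7% lower there. Over the alternatives the number of members past the threshold in CD8 T cells was not stable, and nothing is read from it. Fitting only the 4 libraries compared left 6 type I genes called in CD4 T cells. Leaving out 1 library at a time lowered the number of members called in every comparison in at least 1 of these fits. In CD4 T cells it left between 5 and 10 immunity-related GTPases, 1 and 6 signalling genes, 2 and 14 type I genes, 0 and 4 interferon gamma targets, 1 and 3 partners and 0 and 1 relatives.

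With 2 libraries per group, a group reduced to 1 library was assumed to vary like the other groups. Macrophage marker sums differed between replicates by more than between genotypes, and reads shared by Gbp6 and Gbp10 limit both counts. The calls of Gbp3, Gbp6, Gbp7 and Gbp8 in CD4 T cells were made under all 16 alternatives, that of Gbp5 under 15 and that of Gbp2 under 13.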
